A study of Mus musculus with 2 samples.

Results

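Dense windows were the 100 kb stretches of the mouse genome that held the most accessible chromatin sites in regulatory T cells. Chromosomes 1 to 19 and X of mm10 were cut into 26350 windows of 100 kb, counted from the first base, and a window was kept as dense where it held 10 or more replicated regions. A replicated region is an accessible region of replicate 1 that overlaps a region of replicate 2 by at least 1 bp, and it was given to the window that holds its midpoint. The rule kept 1359 windows, 5.16% of all windows and 5.29% of the 25702 windows that hold any sequence. They make up 136 Mb of 2630 Mb, and of the others 11866 windows held at least 1 replicated region and 13125 held none. Because the rule used the counts themselves, the counts, the signal and the positions of the regions below are descriptions of these 2 lists, with no test.

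The data were 2 lists of accessible regions from regulatory T cells, a CD4 T cell lineage defined by Foxp3 that holds immune reactions in check, given by the labels as ATAC-seq of primary cells of strain C57BL/6NJ, with age unknown and sex not collected. Both libraries belong to 1 group with no other condition, are labelled biological replicates 1 and 2, and share 1 donor identifier. They may thus come from 1 animal, and the spread between them may be technical. Entry names in the lists give 72 hours and include the words ASTARR and insert. The sources used here do not say what these words mean, so it was not settled whether the regions were called on ordinary ATAC-seq reads or on inserts of a different assay, and a linked protocol on CD4 T cell differentiation was not used here. The depth behind the lists is unknown. Replicate 1 listed 68903 regions and replicate 2 listed 78262, of which 64160 and 63815 on these chromosomes overlapped the other list. The labelled cell type was checked against promoters. All 26 pan T cell genes matched had a region within 1 kb of a transcript start in both replicates. So did 25 of 28 regulatory T cell genes, Foxp3 among them. The counts were 4 of 14 for cytotoxic T and NK genes, 7 of 14 for B cell, 3 of 14 for myeloid and 6 of 12 for erythroid and megakaryocyte genes. They were 2 of 15 for hepatocyte, 9 of 15 for neuron and 5 of 14 for skeletal muscle genes, and 16 of 20 for developmental regulators of other lineages.

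ATAC-seq uses a transposase that cuts DNA where nucleosomes and other proteins leave it exposed, so accessible regions mark promoters and distal elements such as enhancers, silencers and insulators. Genes that define a cell type are often surrounded by many such elements, spread through introns and neighbouring non-coding DNA, on which the transcription factors of that cell type bind. In T cells the factors known for this are the ETS family (Ets1, Fli1), the RUNX family, TCF1 and LEF1 (Tcf7, Lef1), BCL11B and, after activation, AP-1 with its BATF and IRF partners. The high-affinity interleukin-2 receptor chain encoded by Il2ra, and the STAT5 proteins that the whole receptor signals through, are central to regulatory T cells.

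The sequences shown next were taken because they are the strongest distal regions, by the -log10 q of replicate 1, of the 2 fullest windows and of the 4 fullest windows with no protein-coding gene start. Distal means that the region's midpoint lay over 1 kb from every annotated transcript start. Each is the 201 bases centred on the replicate 1 summit, read from the plus strand of GRCm38, which is mm10. Capitals mark matches, on either strand, to any of 8 short motifs, which are given with the motif results, 6 by their letters and those of NF-kB and CTCF by name alone. The first lies upstream of Il2ra, 8307 bp from the nearest transcript start. The second lies in an intron of Ptk2b, a focal adhesion family kinase gene, and carries 2 AP-1 matches. The Prkch, Ets1 and Bcl11b sequences lie in introns, and the remaining one lies between genes on chromosome 8.

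Il2ra window, chr2:11616908-11617108: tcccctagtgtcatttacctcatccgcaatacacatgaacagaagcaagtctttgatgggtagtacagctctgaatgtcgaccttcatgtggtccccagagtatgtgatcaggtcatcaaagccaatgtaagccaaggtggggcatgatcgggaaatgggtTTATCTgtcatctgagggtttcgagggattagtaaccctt
Ptk2b window, chr14:66257727-66257927: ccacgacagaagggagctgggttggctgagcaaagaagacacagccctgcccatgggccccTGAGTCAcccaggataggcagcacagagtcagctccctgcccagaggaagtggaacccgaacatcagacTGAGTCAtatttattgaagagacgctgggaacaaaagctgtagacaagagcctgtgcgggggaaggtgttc
Prkch window, chr12:73636498-73636698: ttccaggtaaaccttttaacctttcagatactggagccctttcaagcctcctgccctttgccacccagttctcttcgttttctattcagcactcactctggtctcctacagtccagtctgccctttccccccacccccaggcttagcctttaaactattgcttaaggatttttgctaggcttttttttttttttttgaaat
Ets1 window, chr9:32745176-32745376: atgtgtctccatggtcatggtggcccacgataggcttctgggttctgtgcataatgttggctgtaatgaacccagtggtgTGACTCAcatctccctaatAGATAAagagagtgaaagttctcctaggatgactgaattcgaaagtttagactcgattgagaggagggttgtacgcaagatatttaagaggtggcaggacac
Window with no protein-coding gene, chr8:126867703-126867903: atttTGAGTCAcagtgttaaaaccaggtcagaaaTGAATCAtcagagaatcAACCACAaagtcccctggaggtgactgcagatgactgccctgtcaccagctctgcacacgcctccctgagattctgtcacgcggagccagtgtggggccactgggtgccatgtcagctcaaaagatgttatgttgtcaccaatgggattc
Bcl11b window, chr12:107993150-107993350: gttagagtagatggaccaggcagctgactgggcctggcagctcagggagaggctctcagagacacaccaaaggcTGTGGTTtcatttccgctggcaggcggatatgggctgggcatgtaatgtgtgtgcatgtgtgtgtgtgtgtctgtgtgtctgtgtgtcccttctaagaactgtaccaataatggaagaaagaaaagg

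The chromosome 8 sequence came from the strongest of the 6 regions, with a deposited signal of 13.3 in replicate 1 and 13.4 in replicate 2, at the 99.7 and 99.8 percentile of -log10 q of their lists. It holds 2 AP-1 matches and 1 RUNX match within its first part. The Ets1 sequence holds 1 AP-1 and 1 GATA match, the Il2ra sequence 1 GATA match and the Bcl11b sequence 1 RUNX match. The Prkch sequence holds none, which says only that these letters are not in this window. The weakest of the 6 by -log10 q was the Bcl11b region, at the 80.3 and 81.5 percentile.

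Dense windows formed the upper end of a continuous distribution and had no gap below them. There were 421 windows with 10 replicated regions, just inside the threshold, and 589 windows with 9, just outside it. Windows with 15 or more numbered 160, windows with 20 or more numbered 13, and the fullest held 24. Together the 1359 windows held 16194 of the 64160 replicated regions of replicate 1 (25.2%) and 16052 of the 63815 of replicate 2 (25.2%). Regions covered between 4.59 and 23.7 kb of a dense window, with a median of 8.97 kb. In windows just outside, replicate 2 could list many more regions than replicate 1. One such window, chr6:99000001-99100000 within Foxp1, a forkhead factor gene of naive T cells, held 9 replicated regions, 10 regions of replicate 1 and 18 of replicate 2.

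**Figure D1:**
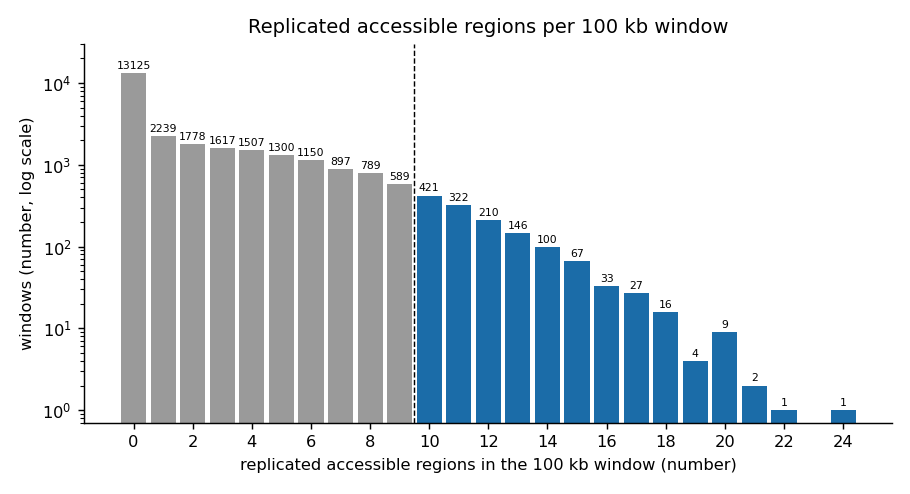
Number of 100 kb windows (log scale) by the number of replicated accessible regions they hold, with dense windows in blue to the right of the dashed line. Counts fall smoothly through the threshold, from 589 windows with 9 to 421 with 10, and reach 1 window with 24.

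The counts were close in the 2 replicates, as they must be in part, since the rule asks for overlap. Counted from replicate 2, the same windows held 8 to 24 replicated regions with a median of 11. The count was equal in 1033 windows (76.0%) and within 1 in 1336 (98.3%), and the largest difference was 4. The rule applied from the side of replicate 2 kept 1342 windows, of which 1318 (98.2%) were the same windows. With every region of a single list counted, 1659 windows held 10 or more in replicate 1 and 2336 in replicate 2.

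Dense windows were spread unevenly over chromosomes. Chromosome 11 had the highest share, 136 of 1189 windows (11.4%), followed by chromosome 19 with 8.23%, chromosome 15 with 7.82% and chromosome 4 with 6.67%. The X chromosome had the lowest, 12 of 1670 windows (0.719%). Dense windows had a median GC content of 46.5%, against 43.3% for the other windows with a replicated region and 40.9% for all other windows with sequence. The median number of CpG dinucleotides was 12.7, 9.86 and 7.3 per 1000 bases in the same order. They held a mean of 2.36 protein-coding gene starts, against 1.23 and 0.762.

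The fullest window of the genome lay on Il2ra. At chr2:11600001-11700000, replicate 1 listed 25 regions and replicate 2 listed 27, and 24 of each were replicated. The window also holds the start of Rbm17, a splicing factor gene, and Gm17490. In replicate 1, 3 regions lay at promoters, 2 in exons, 12 in introns and 7 between genes, and 20 of the 24 were distal in both replicates. The region at the start of Il2ra, with its summit 42.67 kb into the window, had a signal of 5.94 in replicate 1 and 6.26 in replicate 2. Beyond it to the end of the window, a stretch filled mainly by the introns of Il2ra, the 15 replicate 1 regions had signals of 1.65 to 3.70, and the 16 of replicate 2 had 1.60 to 3.57. On the side toward Rbm17, the 8 regions of replicate 1 had signals of 3.59 to 14.2, and the 7 of replicate 2 had 3.73 to 14.8. Of these, 2 in each replicate lay at promoters, and the others, 6 in replicate 1 and 5 in replicate 2, lay between genes with signals of 3.59 to 7.08 and of 3.73 to 7.62. The regions past the start of Il2ra were thus more numerous and mostly weaker by signal than those before it, in both replicates. The preceding window held 11 replicated regions and the following one 3.

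The next windows in rank carried genes of several kinds. The window at chr14:66200001-66300000, with 22 replicated regions in each replicate, holds the starts of Ptk2b and Trim35, and 18 of its regions lay in introns. The window at chr11:98900001-99000000, with 21 in each, holds Rara, the retinoic acid receptor that promotes regulatory T cell induction, beside Cdc6 and the end of Top2a, genes of DNA replication and chromosome separation, and 16 of its regions were distal. Prkch, a protein kinase C gene of T cell receptor signalling, filled a window with 20 in each replicate. The windows of Cytip, a regulator of leukocyte adhesion, and of Igf1r, a growth factor receptor, also held 20 in each. The window of Glb1, into which Ccr4 reaches, a chemokine receptor gene of skin-homing and regulatory T cells, held 20 in replicate 1 and 19 in replicate 2. That of Ets1 held 20 and 19, all of them distal. In replicate 1 the median signal of these 9 windows, counting the Il2ra window and the histone window described next, ran from 2.46 in the Il2ra window to 5.36 in the histone window, all below the 7.27 of regions outside dense windows.

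Another of these 9 was of a different make. The window at chr13:23500001-23600000 holds a part of the Hist1 cluster of replication-dependent histone genes, with 14 protein-coding starts and 21 replicated regions in each replicate. Only 10 of these regions were distal, and the median -log10 q was 88.7 in replicate 1 and 128 in replicate 2, the highest of the 9.

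**Figure D2:**
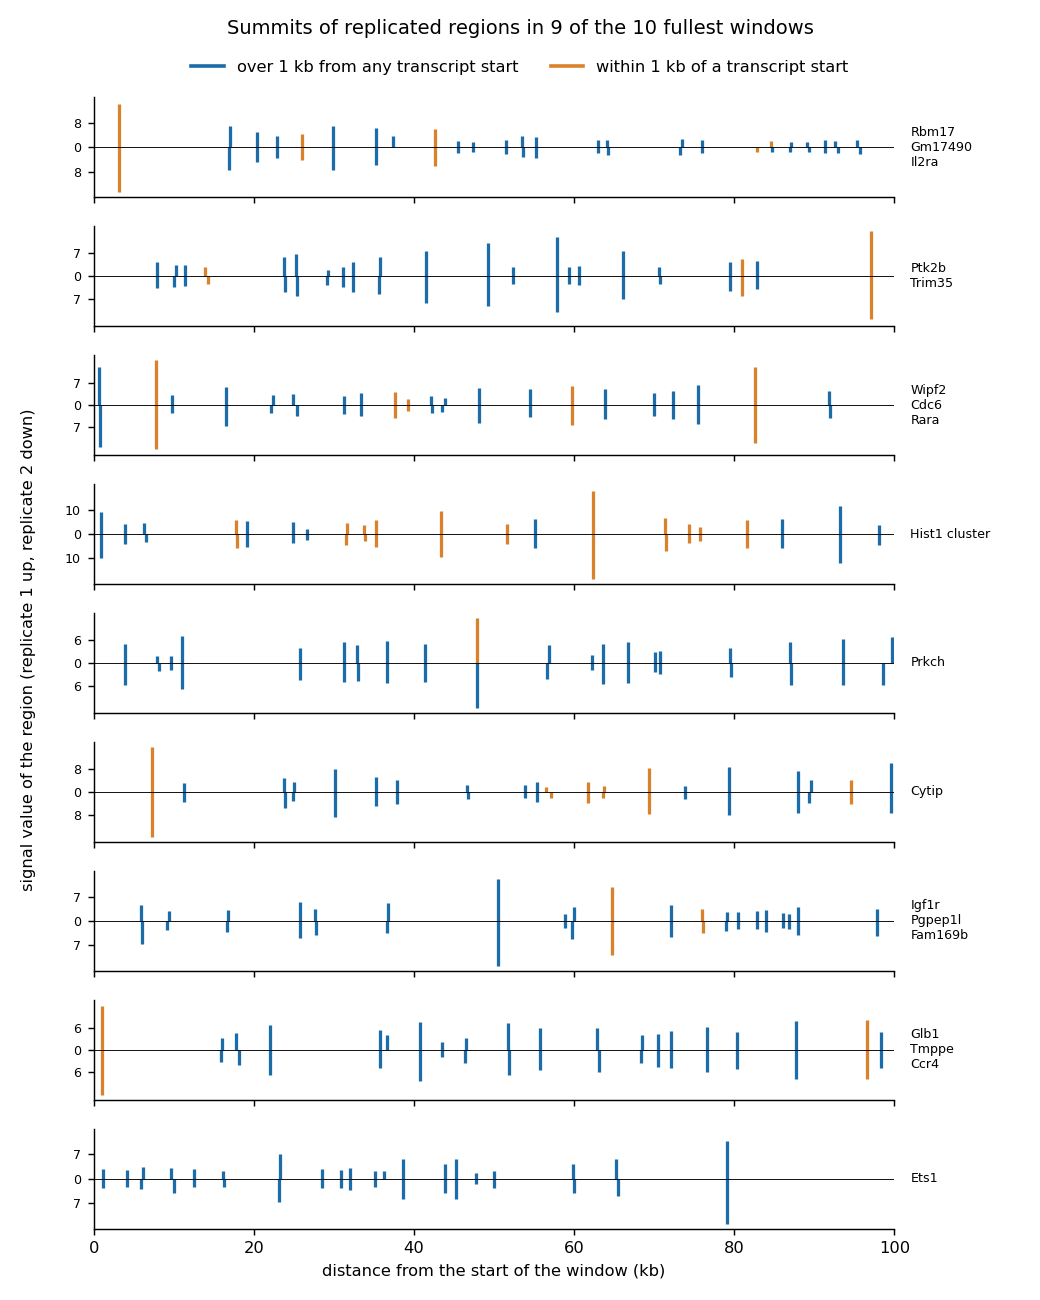
Summits of replicated regions along 9 of the 10 fullest windows, by distance from the window start in kb (horizontal) and deposited signal (vertical, replicate 1 upward and replicate 2 downward, with its own scale in each row). Blue lines are regions over 1 kb from any transcript start and orange lines are those within 1 kb. In the Il2ra window the lines past the gene's start, at 42.67 kb, are short in both replicates, and in the Ets1 window every line is blue.

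Runs of adjacent dense windows held 657 of the 1359 dense windows (48.3%), in 269 runs of 2 or more, and the other 702 (51.7%) had no dense neighbour. There were 190 runs of 2, 50 of 3, 20 of 4, 8 of 5 and 1 of 7. The run of 7, at chr11:100500001-101200000, held 83 replicated regions in each replicate and 29 protein-coding starts. It includes Stat5b, Stat5a and Stat3, which encode the signal transducers of interleukin-2 and interleukin-6 family cytokines, and Ezh1, a histone methyltransferase gene. Its fullest window, with 16 regions in each replicate, was the one with the starts of Stat5a and Stat5b. Over the whole run, 60.2% of the regions were distal in each replicate. No single window of this run stood among the 10 fullest.

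The other 8 long runs, of 5 windows each, ranged from gene-poor to gene-rich. The run at chr13:30500001-31000000 held 77 replicated regions in each replicate and 6 starts, and 93.5% of its regions were distal. Its middle window, with 18 in each replicate, holds the start of Irf4, a transcription factor that regulatory T cells use in effector differentiation, between Dusp22, a phosphatase gene, and Exoc2, an exocyst subunit gene. The run at chr2:167500001-168000000 held 69 in each replicate and 6 starts and was 85.5% distal. It includes Snai1, the transcription factor gene Cebpb and Ptpn1, a phosphatase gene of cytokine receptor signalling. The run at chr12:73500001-74000000, with Prkch and Hif1a, the oxygen-sensing factor gene, held 63 in each replicate and was 85.7% and 87.3% distal. By contrast, the run at chr10:81100001-81600000 held 33 starts, 67 replicated regions in replicate 1 and 66 in replicate 2, and was 40.3% and 40.9% distal. It includes Map2k2, a MAP kinase kinase gene, and S1pr4, a lysophospholipid receptor gene of lymphocytes. The run at chr8:84600001-85100000 held 32 starts and 65 regions in each replicate, was 40.0% and 38.5% distal, and includes Nfix, Klf1 and the AP-1 gene Junb. Other runs lay between these in distal share. Those at chr19:53100001-53600000 and chr4:149600001-150100000, with 6 starts each, were 77.6% and 69.6% distal in each replicate. The run at chr15:98600001-99100000, with 23 starts, was 52.4% distal in replicate 1 and 52.5% in replicate 2. The 9 runs of 5 or more thus spanned 6 to 33 starts at 56 to 83 regions.

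**Figure D3:**
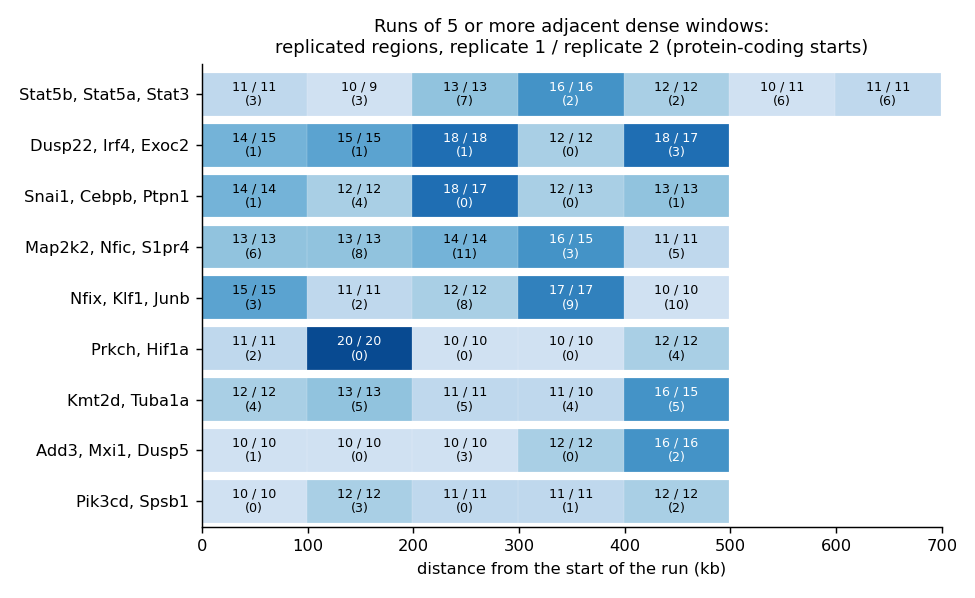
The 9 runs of 5 or more adjacent dense windows, by distance from the start of the run in kb, with 1 box per 100 kb window. Each box gives the replicated regions counted in replicate 1 and replicate 2 and, in parentheses, the protein-coding gene starts, and darker blue marks more regions. The Prkch run is led by 1 window with 20, and the run of 7 windows never exceeds 16.

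The 20 runs of 4 spanned 1 to 33 starts, and 4 of them with few starts are described here, chosen after their values were seen. The run at chr9:32400001-32800000 covers the neighbouring ETS factor genes Fli1 and Ets1, with 59 regions in each replicate and 2 starts. Its windows held 11, 17, 11 and 20 replicated regions in replicate 1. The run at chr4:32200001-32600000 covers Bach2, a repressor that keeps T cells in a resting state, with 52 and 53 regions, 1 start and a distal share of 92.3% and 92.5%. The run at chr1:60700001-61100000 covers the 3 receptor genes Cd28, Ctla4 and Icos, with 49 and 50 regions, of which 81.6% and 84.0% were distal. Within it the window of the Ctla4 start held 13 replicated regions in each replicate, 9 of them between genes. The Icos window held 15 and the Cd28 window 11 in replicate 1. The run at chr10:93100001-93500000 covers the ETS factor gene Elk3 with 52 and 50 regions.

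A few genes spanned several dense windows. All 4 windows that Bach2 crosses were dense, and its body held 50 regions in replicate 1 and 51 in replicate 2. Bodies of Akap13, a RhoA exchange factor gene, Foxp1, Prkch, Rbpj, the Notch effector gene, Hivep3, Fkbp5, Nfix, Rgs3, Cradd and Sgms1 each crossed 3. Foxp1 carried 64 regions in each replicate, although the window of its annotated gene start held 1 replicated region. The gene model with the most dense windows, Gm20388 with 9, is annotated over 4430 kb and crosses 45 windows, and the Fgfr2 model, with 3, over 2960 kb, so their counts come from many other genes.

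Gene-poor windows could be as full as gene-rich ones. Of the dense windows, 254 (18.7%) held no protein-coding start, 90 held no gene start of any type, and 60 touched no protein-coding gene body. The fullest without a protein-coding start were those inside Prkch and at Ets1, described above, and a window on chromosome 8 with no protein-coding gene. That window, chr8:126800001-126900000, held 20 replicated regions in each replicate, 18 of them distal. It lies 206 kb from Irf2bp2, an IRF2-binding corepressor gene, and 45.8 kb from Tomm20, and carries the long non-coding genes Gm31718 and A630001O12Rik. The median signal there was 4.82 and 4.66 in the 2 replicates. The window over Bcl11b, the zinc finger factor gene that commits progenitors to the T lineage, without its start, followed with 19 in replicate 1 and 20 in replicate 2, every one distal. Their median signal was 2.78 and 2.73. The window inside Sept9, a septin gene, held 19 and 18, of which 14 were distal in each replicate.

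Other full windows without a gene body lay at widely different distances from the nearest protein-coding gene. A window 10.2 kb from Tmem189 and 132 kb from Ptpn1, chr2:167700001-167800000, held 18 replicated regions in replicate 1 and 17 in replicate 2. On the X chromosome, a window 9.31 kb from Tmsb4x, the abundant actin-binding thymosin gene, held 17 and 16. A window of chromosome 10, 51.0 kb from Ado, held 16 and 15, and a window of chromosome 6, 141 kb from Klf14, held 15 and 16. A window on chromosome 15, chr15:62700001-62800000, held 15 in each replicate, all distal, at 715 kb from Myc, the nearest protein-coding gene on that side. A window 61.5 kb from Klf6 held 15 in each and a window 9.36 kb from Il12a held 14 and 13. Which genes these regions act on was not tested.

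Of the 5 dense windows with the most gene starts, the histone window held 21 replicated regions and the other 4 held 11 to 14 in replicate 1. The window with 17 protein-coding starts, chr2:25200001-25300000 with Anapc2, Tubb4b and Grin1, held 12 replicated regions in each replicate, of which 5 were distal. A window of chromosome 19 with 15 starts held 11, of which 2 were distal, and includes Bscl2 and Ganab. Another with 14 starts, chr19:6900001-7000000 with Esrra, Bad and Vegfb, held 14 in replicate 1 and 13 in replicate 2, and 2 were distal. In the major histocompatibility complex, chr17:35000001-35100000 with Vars, Msh5 and Clic1, 12 of 13 regions lay at promoters and 1 was distal. Their median signals, 6.36 to 10.4 in replicate 1 outside the histone window, were above those of the 5 fullest windows without a protein-coding start, 2.78 to 4.89. Those 5 held 19 or 20 regions in replicate 1, and signal was lower in fuller windows, so count and gene starts are mixed in this contrast. Over all dense windows the replicate 1 median was 5.73 without a start and 7.03 with 6 or more.

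Most regions of dense windows were distal. The distal share was 74.4% ± 0.0382 (SD, n = 2), against 71.4% ± 0.031 for replicated regions of the other windows, a difference of 2.96 points in replicate 1 and 3.06 in replicate 2. The direction depended on the distance: with distal set at over 2.5 kb the difference was 0.834 points, and at over 5 kb it was -2.29. These SDs must be small in part, since both lists were restricted to regions that overlap the other list. The part of the shared donor identifier was not tested. Introns held 40.2% ± 0.0221 of the regions, intergenic DNA 33.7% ± 0.0477, promoters of protein-coding genes 22.1% ± 0.0774 and exons 4.04% ± 0.00764. Among windows the share ranged from 0% to 100% with a median of 80.0%. In 109 windows (8.02%) every region was distal in both replicates, and in 205 (15.1%) 50% or fewer were.

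At a given number of gene starts the gap was wider where the window held a start, and was 0.477 points where it held none. In windows with 1 protein-coding start, 83.4% of the regions of dense windows were distal, against 71.6% elsewhere. With 2 starts the shares were 77.2% and 63.3%, with 3 to 5 starts 62.9% and 51.5%, and with 6 or more 40.3% and 35.2%. Without a start they were 91.9% and 91.5%. A window chosen for many regions at a fixed number of starts must hold more of them away from promoters, so this gap follows in part from the rule. The mean number of replicated regions per dense window was near 12 in every class, from 11.8 to 12.1. The share of windows that were dense rose with the starts, from 1.69% of those without one to 7.17%, 9.70%, 14.3% and 32.8% of those with 6 or more. With distal set at over 5 kb, the differences for windows with 1, 2, 3 to 5 and 6 or more starts were 9.05, 8.57, 3.58 and 0.931 points, and that for windows without a start was -1.27.

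**Figure D4:**
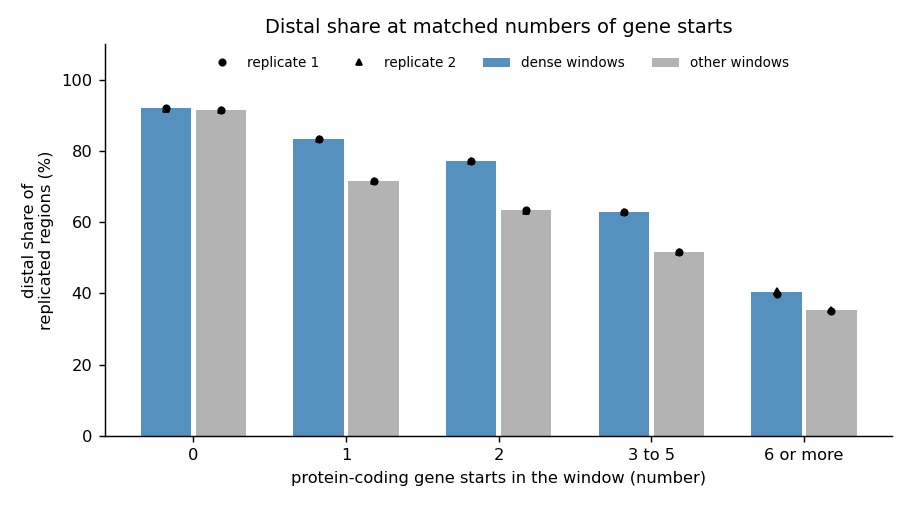
Share of replicated regions over 1 kb from any transcript start (percent) in dense (blue) and other (grey) windows, by the number of protein-coding gene starts in the window. Bars are the mean of 2 replicates, shown as a dot and a triangle. Blue and grey are level where there is no start and stand furthest apart, 77.2% against 63.3%, with 2.

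Over all windows, regions of dense windows had a lower signal and a higher -log10 q than regions elsewhere, and the order of the -log10 q turned with the number of gene starts. The median signal was 6.11 ± 0.0609 (SD, n = 2) against 7.39 ± 0.165. In replicate 1 the median -log10 q was 28.8 in dense and 23.5 in other windows, and in replicate 2 it was 42.8 and 35.6. For distal regions it was 23.0 and 34.5 against 17.7 and 26.8, whereas regions within 1 kb of a start had 71.3 and 109 in dense windows against 79.9 and 117 elsewhere. In windows with 2 protein-coding starts the median -log10 q was lower in dense windows, 26.8 and 39.9 in the 2 replicates against 27.9 and 42.0. It was also lower with 3 to 5 starts, 31.7 and 46.6 against 36.9 and 54.4, and with 6 or more, 50.4 and 74.3 against 56.8 and 84.0. The scale of the signal is not known, and the signal and the q rank regions differently. Signal fell with the count from 4 regions upward. In replicate 1 the median was 7.23 in windows with 1 replicated region, 7.40 with 2 or 3, 7.46 with 4 to 6 replicated regions, 6.98 with 7 to 9, 6.46 with 10 or 11, 6.07 with 12 to 14 and 5.00 with 15 or more. In replicate 2 it was 7.84, 7.81, 7.73, 7.17, 6.55, 6.16 and 5.09. It was lower in dense windows both for distal regions, 5.68 ± 0.0563 against 6.56 ± 0.16, and for the rest, 7.74 ± 0.0458 against 10.3 ± 0.0796. The median -log10 q in replicate 1 went from 17.4 in windows with 1 replicated region to 30.3 with 12 to 14, and was 28.0 with 15 or more.

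Dense windows held the starts of 3205 of 21755 protein-coding genes, or 14.7%. Of the 14122 genes with an open promoter, meaning a region within 1 kb of any of the gene's transcript starts in both replicates, 20.3% started in one. These are the shares that the gene lists below are set against. Genes of T cell function stood well above them. Of 280 genes on the 18 T cell lists, 159 (56.8%) started in a dense window, and of the 269 with an open promoter 157 (58.4%). The 159 genes lay in 153 windows. Of 104 genes on 7 lists for other cell types, 16 (15.4%) did, and of the 48 with an open promoter 9 (18.8%). The lists were drawn up with earlier results of these data known, and regions near a gene start count toward its window, so these shares are descriptions. With dense set at 12 or more, the shares were 36.1% of the T cell list genes and 6.98% of all genes. With the tiling shifted by 50 kb they were 57.5% and 15.5%. With the 50000 strongest entries of each list they were 9.64% and 2.58% by signal, and 33.2% and 6.73% by -log10 q.

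Regulatory T cell genes were dense at 15 of 28 (53.6%). The count was 21 with the tiling shifted by 50 kb and 11 with dense set at 12 or more. After Il2ra came Tnfrsf1b, the tumour necrosis factor receptor that expands these cells, with 18 replicated regions in its window in each replicate, and Icos with 15. Ctla4 had 13 and Ikzf2, which encodes the Ikaros family factor Helios, had 10, at the threshold. Foxp3 itself was not in a dense window of the reported tiling. Its window, chrX:7500001-7600000, held 9 replicated regions in replicate 1 and 8 in replicate 2. The next window held 11 and the one before it 8.

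Most listed pan T cell genes, T cell receptor signalling genes and naive T cell genes started in dense windows. With dense set at 12 or more this no longer held, at 10 of 26, 9 of 25 and 7 of 18. Subunit genes of the receptor complex lay nearer the threshold, with 14 at Cd3e and 10 at Cd3d, Cd3g and Cd247 in each replicate. Zap70 and Lat, with 9 and 8 in replicate 1, started outside dense windows. Of 26 pan T cell genes, 18 (69.2%) started in a dense window. The scaffold gene Lcp2, Cd5, Ptprc, Thy1 and Tcf7 each had 17 in replicate 1. Of 25 T cell receptor signalling genes, 15 (60.0%) did, with 18 in each replicate at Sla, an adaptor that dampens receptor levels, 15 at Rasgrp1, a Ras activator, and 14 at the ubiquitin ligase gene Cblb. Of 18 genes of naive and quiescent T cells, 13 (72.2%) did. Il7r, the survival cytokine receptor, and Lef1 had 17 in each replicate, and the lymph node homing receptor Ccr7 had 16.

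Transcription factor genes that act in T cells were dense in most of these lists. RUNX and ETS factors were dense at 10 of 16, led by Fli1 with 17 replicated regions in each replicate. Of these 10 genes, 6 had 10 regions in replicate 1, at the threshold, and the count was 5 with the tiling shifted by 50 kb and 2 with dense set at 12 or more. AP-1, BATF and IRF factors were dense at 10 of 17, with 18 at Irf4 and 17 at Junb. NF-kB and NFAT genes were dense at 9 of 15, with Nfkb1 at 17 and 18, and NR4A, EGR and TOX genes at 5 of 8, with 15 at Nr4a3. The Ikaros and BCL11 list, which also holds ZBTB and ZEB genes, stood lower at 3 of 8. In replicate 1 it had 12 at Zbtb7b and 11 at Ikzf1 and at Zbtb1. Ikzf2 and Ikzf4, both dense, were on the regulatory T cell list, and Bcl11b was on the pan T cell list. Bcl11b started outside a dense window, with 7 in each replicate. The share given is that of the list, and the families were not counted across lists.

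Cytokine pathways were also well covered. IL-2 and STAT5 signalling genes were dense at 10 of 16. Socs1, the feedback inhibitor of JAK kinases, had 19 in each replicate and was the fullest of them. TGF-beta signalling genes were dense at 8 of 15, with 15 in each replicate at the coreceptor Tgfbr3 and 14 at Tgfbr2. TNF superfamily and death genes had the highest share of the T cell lists, 13 of 16 (81.2%). Of these Tnf and Lta are neighbours in 1 window, with 16 and 17.

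Lists of the other helper lineages, of inhibitory receptors and of homing receptors were lower, at 33.3% to 47.1%, but above the 14.7% of all genes. This was not particular to T cell lists. Housekeeping genes (43.8%), myeloid genes (35.7%) and erythroid and megakaryocyte genes (33.3%) stood at similar levels. The B cell, hepatocyte, neuron, skeletal muscle and developmental regulator lists were each below 14.7%. The share was 5 of 13 for T helper 1 genes, with 15 in each replicate at Ifng, the interferon gamma gene, and 5 of 11 for T helper 2 genes, with 16 at the chemokine receptor gene Ccr8. These 5 T helper 2 genes lay in 4 windows. Their count was 1 with dense set at 12 or more and 10 with dense set at 8 or more. Il4 and Il13 had closed promoters and started outside dense windows, with 9 in each replicate. The share was 4 of 12 for T helper 17 genes, where Ccr6 had 16 in replicate 1 and 12 in replicate 2, a gap as large as any between the replicates' counts. It was 4 of 10 for follicular helper genes, with 12 at Pdcd1, and 2 of 10 with the tiling shifted by 50 kb. It was 4 of 9 for coinhibitory receptors, with 13 at Cd101, and 8 of 17 for homing receptors, with 16 at Gpr183 and Itgal. Of 14 cytotoxic T and NK genes 6 were in dense windows, but 3 of these 6 had a closed promoter, and the count was 3 with the tiling shifted by 50 kb.

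Genes with open promoters were not in dense windows in every list. All 20 cell cycle genes had an open promoter, and 3 of the 20 started in a dense window. The share was 14.7% of all genes and 20.3% of all those with an open promoter. The 3 were Aurkb with 16 in each replicate, Ccnd3 with 13 and Mcm2 with 10. With the tiling shifted by 50 kb the count was 7 of the 20, against 15.5% of all genes. With dense set at 8 or more it was 9 of the 20, against 28.0% of all genes. Housekeeping genes stood at 7 of 16 (43.8%), with 17 at Actb. Of 79 ribosomal protein genes 24 (30.4%) did. Of 391 Zfp zinc finger genes, 330 had an open promoter and 31 (7.93%) were in dense windows. Of 20 developmental regulators of other lineages, 16 had an open promoter and 1, Sox10, was dense, with 10. Of the 14 skeletal muscle genes only Mylpf was, with 16, and 2 were with the tiling shifted by 50 kb.

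**Figure D5:**
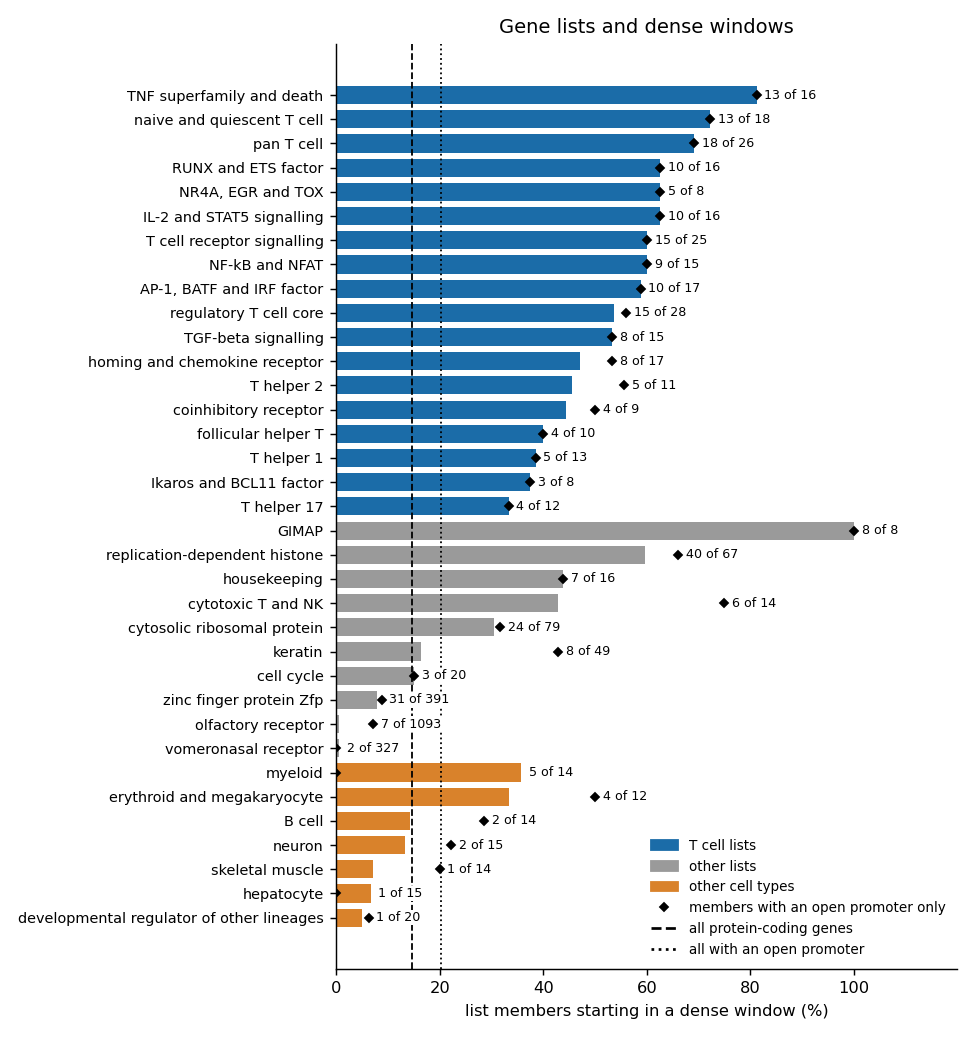
Share of each list's matched genes that start in a dense window (bars, percent, with the number of genes), and the same share among members with an open promoter (diamonds). The dashed line is the 14.7% of all protein-coding genes and the dotted line the 20.3% of those with an open promoter. Every T cell list lies right of both lines, and cell cycle genes lie at the dashed line.

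Gene families that sit side by side were counted in a few windows. All 8 Gimap genes, GTPases of lymphocyte survival, started in 2 neighbouring windows of chromosome 6 with 17 and 14 replicated regions. Of 67 replication-dependent histone genes 40 (59.7%) started in 5 dense windows. Olfactory receptors were dense at 7 of 1093 (0.64%) and vomeronasal receptors at 2 of 327 (0.612%), with closed promoters at 6 of these 7 and at both of these 2. With the tiling shifted by 50 kb, 1 olfactory and 0 vomeronasal receptor genes started in dense windows. Members that share a window share its count and are not separate observations.

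A dense window did not mean an open promoter for each gene in it. Of the 3205 starts in dense windows, 343 had no promoter region in both replicates. Among myeloid genes, 5 of 14 started in dense windows and all 5 promoters were closed: Fcgr1, Mpo, Elane, S100a8 and S100a9, with 10 to 13 replicated regions in their windows. With the tiling shifted by 50 kb, 2 myeloid genes started in dense windows. Of the 159 T cell list genes the exceptions were Itgae, the CD103 integrin gene, in a window with 14, and Il21, in one with 13. In the other direction, 23 T cell list genes started outside dense windows while their bodies reached into one. The window of the Bcl11b start held 7 and the one over its body 19. Lrrc32, which encodes the TGF-beta carrier GARP, went from 6 to 18, and Nfatc2, a calcium-responsive factor gene, from 9 to 17. Rora had none in its start window and 14 in a window of its body. Counting bodies, 182 of the 280 T cell list genes (65.0%) touched a dense window, against 17.3% of all protein-coding genes.

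Short motifs at the summits of distal regions differed little between dense and other windows. The search covered the 201 bases centred on each distal summit, on both strands, and is a match of letters, not a site of binding. AP-1 (TGANTCA) was present in 22.0% ± 0.424 of regions in dense windows (SD, n = 2) and 23.6% ± 0.495 elsewhere, against 6.05% of stretches of the same length at the centres of windows. ETS (ACAGGAAG or CAGGAAGT, which overlap) stood at 10.9% ± 0.0707 and 9.98% ± 0.0212, against 2.76%. RUNX (TGTGGTT) stood at 10.4% ± 0.0707 and 10.6% ± 0.0707, against 4.85%. TCF/LEF (CTTTGAA) stood at 5.90% ± 0.0141 and 6.71% ± 0.134, against 5.39%. The GATA factor pattern, spelled AGATAA, stood at 8.68% ± 0.0283 and 9.91% ± 0.0919, against 13.5%. For NF-kB, searched as 1 exact string of its consensus, the shares were 0.637% ± 0.0219 and 0.643% ± 0.0191, against 0.0446%. For the cAMP response element (TGACGTCA) they were 0.529% ± 0.00849 and 0.406% ± 0.000707, against 0.13%.

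The pattern of CTCF, the insulator protein whose sites sit at loop boundaries, was rarer in dense windows in each replicate. A match to the core of its consensus was found in 4.00% ± 0.0283 of distal regions in dense windows and 5.48% ± 0.0141 elsewhere, against 0.0852% of window centres. In windows without a protein-coding start the shares were 1.96% ± 0.0849 and 3.95% ± 0.0212, and in windows with 6 or more they were 7.49% ± 0.255 and 8.39% ± 0.134. The order was the same in both classes. Median GC content of the searched stretches was 48.8% in dense windows, 47.3% in other windows and 41.3% at window centres, and its part in these shares was not tested.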

How the data were processed

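The labels describe 2 libraries of 1 group, each with its own narrowPeak list on mm10, which per the deposited text files was not made from pooled reads. The sources used here name neither aligner nor peak caller, and do not say whether reads were shifted for the transposase. The deposited score of each region was not used. The authors' deposited signal, whose scale is not given, and the deposited -log10 q were used only to describe and rank regions within a list. The lists hold no counts, so depth is unknown and no counting interval is given.

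Regions were compared with GRCm38 and GENCODE M21 in Python 3.11.15 with numpy 2.4.6 and pandas 2.3.3. Midpoints were assigned in the order promoter (within 1 kb of a protein-coding transcript start), exon, intron and intergenic. A gene start is the 5′ end of the gene record. Of 2448 listed genes, 2446 matched, in 35 lists. Members, lists and motifs were chosen with earlier results of these data known. No test was run, since the rule used the counts and there is 1 group. Values are given per replicate or as mean ± SD (n = 2). The procedure was run on simulated data with planted windows above the threshold, which does not show how it behaves for windows near the threshold.

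Genes were named by rule: those of the 10 fullest windows, of the 5 longest runs, of the 5 dense windows with the most protein-coding starts and of the 5 fullest without one, the 5 genes over the most dense windows, up to 3 members of each list in the fullest windows, and Foxp3, Il2ra, Ctla4 and Ikzf2. Some are not named here. Genes of other runs and of windows without gene bodies, and genes with closed promoters, were named after their values were seen. So were genes that reach a dense window only by their body, Foxp1, Ikzf4, Zap70, Lat, Cd3e, Cd3d, Cd3g and Cd247. Alternatives were other thresholds, overlaps, tilings, strength filters, replicates and distances.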

Additional observations from a re-analysis of the deposited data

Results flagged for a closer look

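Some regions lay outside the tiled chromosomes, in data that none of the comparisons above used. Outside chromosomes 1 to 19 and X, replicate 1 listed 83 regions and replicate 2 listed 101, on 21 sequences. One unplaced scaffold held 21 regions of replicate 1 and 25 of replicate 2 within a span of 113 kb. Of the 21, 19 were replicated, a count above the 10 that defines a dense window. The Y chromosome held 12 and 17 regions.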

How the results depend on the processing

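As reported there were 1359 windows, 269 runs of 2 or more, a distal share of 74.4%, 3205 gene starts and 159 T cell list genes. With 8 or more replicated regions these were 2737 windows, 607 runs, 73.3% and 6094 starts, with 12 or more 616, 88, 75.2%, 1519 and 101 T cell list genes, and with 15 or more 160, 7, 78.5% and 354 starts. The 50000 strongest entries by signal left 183 windows, 10 runs, 68.8%, 562 starts and 27 T cell list genes, and those by -log10 q left 525, 76, 70.7%, 1465 and 93. A -log10 q of 5 or more left 166 runs and 73.6%. Windows of 50 kb with 5 regions gave 4097 windows, 865 runs, 74.2% and 4956 starts, and windows of 200 kb with 20 gave 447, 63 and 72.8%. The distal share was 74.2% with an overlap of at least 50% of the region, 73.7% with the tiling shifted by 50 kb, 74.6% with near regions joined and 74.5% counted from replicate 2. It was 64.2% at over 2.5 kb, 50.8% at over 5 kb and 77.9% with only protein-coding starts. Leaving out 1 replicate gave 1659 to 2336 windows, 352 to 530 runs, 75.1% to 75.9% distal and 3811 to 5257 gene starts. The difference in distal share from other windows turned to -2.29 points at over 5 kb, and to -1.27 in windows without a gene start, a check added after seeing the data. The cause of these changes was not tested. Replicate 2 gave a median signal of 6.15, a -log10 q of 42.8 and an AP-1 share of 22.3% for values of 6.07, 28.8 and 21.7% in replicate 1, and 50 bp to either side of the summit gave 14.8%. Single lists kept their count within 1.5 times in 111 of their alternatives and moved further in 99. No paired analysis was possible because there is 1 group. The unknown depth limits how many weak regions either list could hold.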
